A study of Mus musculus with 4 samples.

Results

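Atoh1 and a set of neurogenic transcription factor genes that act with or after it were followed through the Atoh1 lineage of the mouse cerebellum at E14.5, a day of mid-gestation. The 10 genes are Atoh1, Neurod1, Neurod2, Neurod6, Nhlh1, Nhlh2, Olig2 and Olig3, which encode basic helix-loop-helix (bHLH) proteins, and Insm1 and Insm2, which encode zinc finger proteins. They were chosen by name, out of 32285 genes listed in the files, and every member was detected, with between 1054 UMIs (unique molecular identifiers, counted RNA molecules) for Olig3 and 36675 for Insm1 over 12546 kept cells.

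Single-cell RNA was sequenced with 10x Genomics 3′ chemistry from tdTomato-positive cells that had been sorted by flow cytometry, with the animals of a genotype pooled for each library. The control genotype (2 libraries) was Atoh1-Cre/+; R26LSL-tdT/+. In the En1/2 conditional knockout, CKO (2 libraries), both engrailed genes were floxed on top of those alleles (En1lox/lox, En2lox/lox). Both groups thus carry the Atoh1-Cre transgene and the tdTomato reporter, Cre acts in cells that express or descend from cells that expressed Atoh1-Cre, and En1 and En2 are still intact outside that lineage. Engrailed 1 and 2 are homeodomain factors needed for cerebellar growth and patterning.

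In the rhombic lip of the cerebellum Atoh1 commits progenitors to the glutamatergic fate, first to neurons of the cerebellar nuclei and then to granule cells. It keeps granule cell progenitors dividing, and Neurod1 is known to repress Atoh1 as these cells leave the cell cycle and differentiate. bHLH activators such as these bind E-box DNA as dimers with E proteins (Tcf3, Tcf4, Tcf12), while Id and Hes proteins oppose them.

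A barcode was kept as a cell if 500 or more genes and 1000 or more UMIs were detected and mitochondrial UMIs made up no more than 10%. Cycling cells were those with 2 or more UMIs summed over the proliferation genes Birc5, Cdk1, Cenpf, Mki67, Top2a and Ube2c. A cell was Pax6-leading, the granule cell side, when it had more Pax6 than Meis2 UMIs, and Meis2-leading, the nuclei side, in the opposite case. No member was used to cut these classes. The granule cell factors Tlx3, Reln and Barhl1 were lower in Meis2-leading than in Pax6-leading non-cycling cells by 3.29, 2.34 and 0.89 on the log2 scale, and the nuclei factors Lhx9, Lhx2 and Pou3f1 were higher by 3.29, 3.07 and 2.63 (edgeR quasi-likelihood test with Benjamini-Hochberg adjustment, adjusted p of 1.24e-05 or lower in each). These are examples from 2 lists. Of 12 granule lineage genes tested, which include Pax6 itself, 10 were lower and 1 was higher. Of 9 nuclei lineage genes tested, 8 were higher and 0 lower. Of all 11814 genes tested, 38.6% passed.

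The libraries differed in depth and in makeup. The median kept cell held 2734 UMIs in control replicate 1, 2122 in control replicate 2, 5352 in CKO replicate 1 and 5544 in CKO replicate 2, so that depth and genotype cannot be told apart by these libraries alone. Control replicate 2 stood apart, with 2092 of its 3931 kept cells non-cycling and Meis2-leading, against 314 to 520 cells of that class in the other libraries. Any pair of libraries shared 1 to 6 barcodes among kept cells. Levels are given as UMIs of a gene per 1000000 UMIs of the class and library (CPM). Over all kept cells En2 was at 136 and 167 CPM in controls, and at 29.0 and 19.8 CPM after deletion. En1 was at 238 and 382 CPM against 150 and 253, ranges that overlap. A 3′ tag need not lie in the deleted part of a floxed gene, and where these tags lie was not tested. Both genes were higher in Meis2-leading than in Pax6-leading non-cycling cells, and the part of makeup in these levels was not tested.

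RefSeq promoters (GRCm38.p6, 250 bases before to 50 after the start site) were found for 9 of the 10 members. The 4 shown belong to the genes on which the results below turn, 1 that was lower and 3 that were higher in non-cycling than in cycling cells on the Pax6-leading side. Capitals mark each E-box, searched as CANNTG, a palindromic pattern that reads the same on both strands. The Atoh1 window is chr6:64728875-64729174 on the plus strand, that of Neurod1 chr2:79456587-79456886 on the minus strand, that of Nhlh1 chr1:172057547-172057846 on the minus strand, and that of Nhlh2 chr3:102009895-102010194 on the plus strand. Each is printed 5′ to 3′ along its gene.
Atoh1: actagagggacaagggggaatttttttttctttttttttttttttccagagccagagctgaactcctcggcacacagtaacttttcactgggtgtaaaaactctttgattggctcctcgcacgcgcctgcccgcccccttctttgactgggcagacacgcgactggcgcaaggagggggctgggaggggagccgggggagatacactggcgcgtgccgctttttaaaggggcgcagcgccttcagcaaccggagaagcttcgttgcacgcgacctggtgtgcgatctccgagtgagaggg
Neurod1: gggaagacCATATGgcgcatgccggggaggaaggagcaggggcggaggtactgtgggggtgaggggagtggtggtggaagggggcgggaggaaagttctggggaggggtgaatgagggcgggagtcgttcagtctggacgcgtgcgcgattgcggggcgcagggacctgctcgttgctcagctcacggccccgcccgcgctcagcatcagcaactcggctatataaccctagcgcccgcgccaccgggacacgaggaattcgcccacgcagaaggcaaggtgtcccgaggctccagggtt
Nhlh1: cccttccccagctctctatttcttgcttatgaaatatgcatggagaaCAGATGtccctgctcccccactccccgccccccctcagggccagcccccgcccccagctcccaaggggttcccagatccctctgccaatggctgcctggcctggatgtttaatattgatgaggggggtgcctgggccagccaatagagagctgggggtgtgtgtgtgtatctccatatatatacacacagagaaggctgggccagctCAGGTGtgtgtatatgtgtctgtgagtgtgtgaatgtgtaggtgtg
Nhlh2: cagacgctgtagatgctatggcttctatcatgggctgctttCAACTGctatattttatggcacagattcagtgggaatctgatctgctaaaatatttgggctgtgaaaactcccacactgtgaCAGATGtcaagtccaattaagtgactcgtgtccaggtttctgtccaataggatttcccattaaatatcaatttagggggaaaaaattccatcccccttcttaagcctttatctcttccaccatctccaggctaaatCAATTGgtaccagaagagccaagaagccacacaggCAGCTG

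The Atoh1 window holds 0 E-boxes, that of Neurod1 1, that of Nhlh1 2 and that of Nhlh2 4. Of 32851 promoters of the same length, 72.3% hold at least 1, with a median of 1. CAGATG, read on both strands and itself a form of the E-box, is present in the Nhlh1 and Nhlh2 windows and in 17.2% of all promoters. CAGCTG, also an E-box and palindromic, is present in the Nhlh2 window and in 16.3% of all promoters. A match is a string of letters and not a measured binding site. The genes themselves lie on GRCm38 at chr6:64729125-64731245 (Atoh1), chr2:79452521-79456751 (Neurod1), chr1:172052292-172057573 (Nhlh1) and chr3:102010076-102015492 (Nhlh2), all protein-coding in GENCODE M21. Neurod1 is the only member that overlaps other annotated genes, Cerkl on the same strand and Gm26755 on the opposite strand. Whether the overlap changes its count was not tested.

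The first comparison asked how the members differ between cycling and non-cycling cells. A non-cycling cell is one with fewer than 2 UMIs of the proliferation genes. The class may thus hold dividing cells, and exit from the cell cycle was not measured. The share of cells classed as cycling also depended on depth, and was lower in every library after thinning. Among Pax6-leading cells, Atoh1, Olig3 and Insm1 were lower in non-cycling than in cycling cells, and Neurod1, Nhlh1 and Nhlh2 were higher. Neurod2, Neurod6, Olig2 and Insm2 did not pass the test. Of all 12346 genes tested, 52.6% passed, so a count of 6 among 10 members is close to the background and says nothing particular about them.

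Atoh1 stood at 169 and 104 CPM in cycling Pax6-leading cells of the controls and at 211 and 178 in those of the CKO libraries. In non-cycling Pax6-leading cells it was at 115 and 51.7 CPM in controls and at 162 and 131 in CKO libraries. The level was lower in non-cycling than in cycling cells in 4 of 4 libraries, by 0.59 ± 0.07 (SE) on the log2 scale (edgeR with library as block, adjusted p = 4.25e-07). Olig3, which marks early rhombic lip progenitors, was at 14.6, 11.4, 17.9 and 22.2 CPM in cycling cells of control replicates 1 and 2 and CKO replicates 1 and 2, and at 8.45, 9.70, 7.17 and 12.9 in non-cycling cells. Its difference of -0.93 ± 0.13 (adjusted p = 4.25e-06) rests on 949 UMIs. Insm1, a repressor expressed in newly committed neuronal and endocrine cells, differed by -0.42 ± 0.06 (adjusted p = 3.07e-06) and was lower in 4 of 4 libraries.

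Nhlh1, a bHLH gene of newly postmitotic neurons, was at 58.3, 97.3, 47.6 and 52.2 CPM in cycling Pax6-leading cells of control replicates 1 and 2 and CKO replicates 1 and 2, and at 112, 154, 100.2 and 113 in non-cycling cells. Every non-cycling value was above every cycling value, and the difference was 0.93 ± 0.06 on the log2 scale (adjusted p = 8.09e-11). Neurod1 was higher in non-cycling cells by 0.58 ± 0.07 (adjusted p = 6.38e-07), at 643, 542, 479 and 602 CPM against 449, 306, 345 and 348. Nhlh2, a close relative of Nhlh1, was higher by 0.53 ± 0.06 (adjusted p = 1.88e-07). All 3 were higher in 4 of 4 libraries. Olig3 did not pass on cells thinned to 2000 UMIs (-0.48, adjusted p = 0.212); the calls of the other 5 genes held under each alternative that was run.

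**Figure D1:**
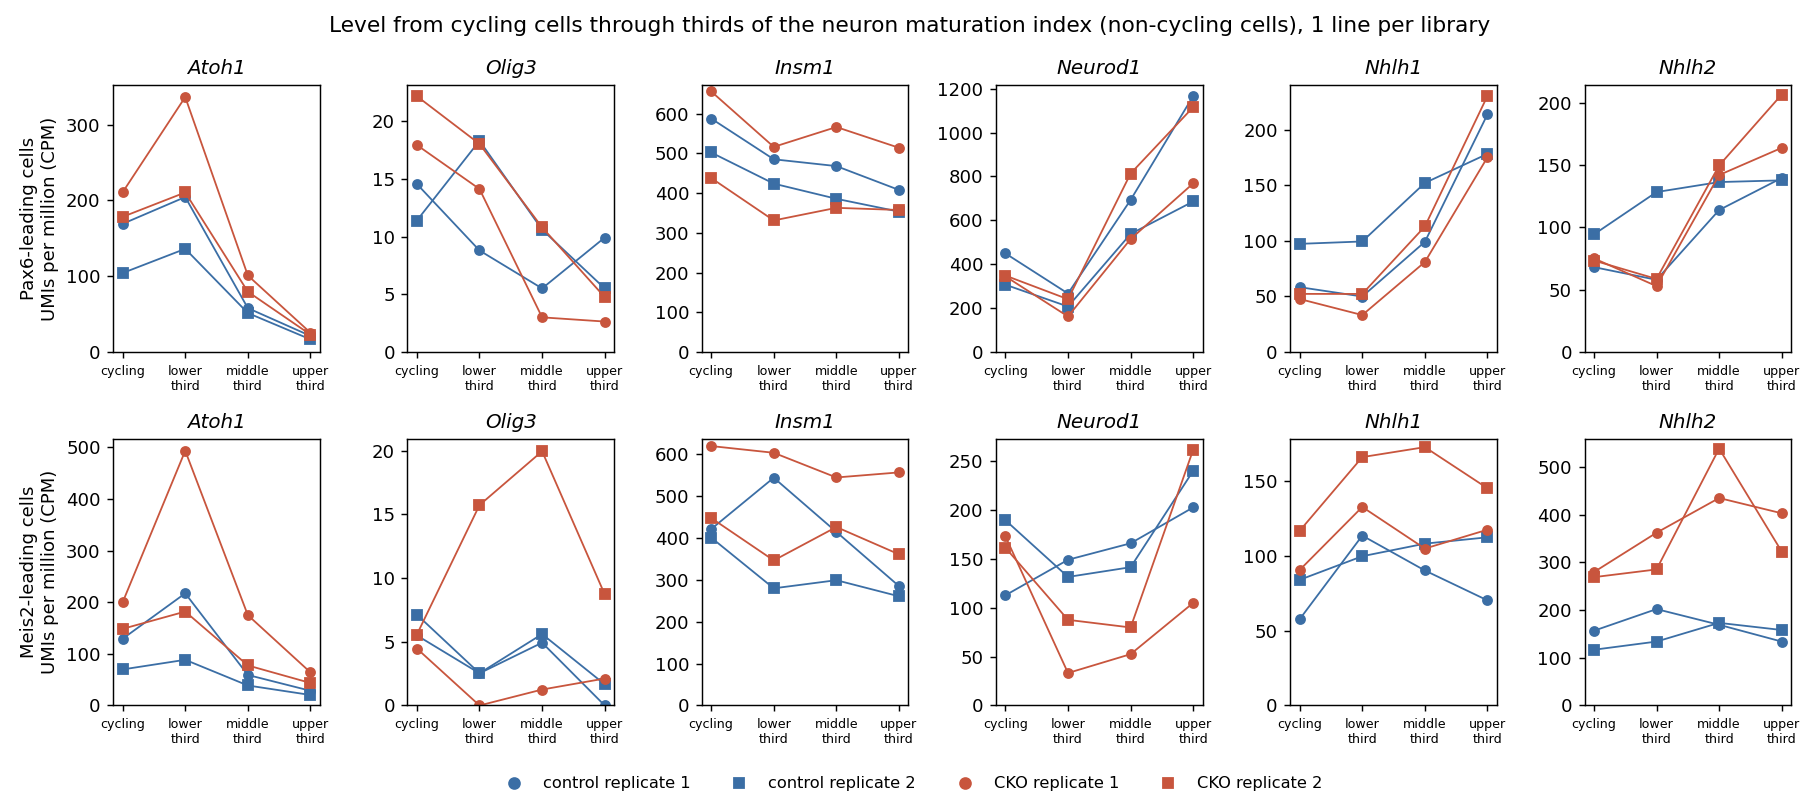
Level of 6 members in CPM (vertical axis, from 0) in cycling cells and in non-cycling cells of the lower, middle and upper tertile of the neuron maturation index (horizontal axis), for Pax6-leading cells (top) and Meis2-leading cells (bottom), 1 line per library. On the Pax6-leading side Atoh1 is above 100 CPM in cycling cells and at 25.3 CPM or lower in the upper tertile in every library, while Neurod1 and Nhlh1 reach their highest values there.

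Non-cycling cells were further placed on a neuron maturation index, the UMIs of 12 neuronal genes (Stmn2, Tubb3, Dcx, Mapt and others) per 10000 UMIs of the cell, cut into tertiles over all libraries. These steps are a description, since the index is itself a measure of expression in the same cells. On the Pax6-leading side Atoh1 was at 205 and 136 CPM (controls) and 337 and 211 CPM (CKO) in the lower tertile. It was at 57.8, 51.3, 101 and 79.5 CPM in the middle tertile and at 21.1, 16.5, 25.3 and 22.8 in the upper one. In all 4 libraries Atoh1 was thus higher in the lower tertile of non-cycling cells than in cycling cells, and lower in each later step. The cycling class was not cut by the index, so a selected class stands beside an unselected one. The part of that selection in the difference was not tested.

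Neurod1 ran the other way, after a dip against the cycling class, which was not cut by the index. It was at 266, 207, 161 and 240 CPM in the lower tertile, below the cycling level of the same library in 4 of 4, and at 1167, 686, 769 and 1116 CPM in the upper one. Nhlh1 was at 49.9, 99.5, 33.2 and 52.2 CPM in the lower tertile and at 214, 178, 175 and 231 in the upper one. Nhlh2 went from 57.8, 128, 52.7 and 58.5 CPM to 140, 138, 164 and 207. Control replicate 2 had the highest Nhlh1 and Nhlh2 of the 4 libraries in the lower tertile, and the smallest rise of both. Neurod2, which acts in later neuronal differentiation, was at 137 to 202 CPM in the lower tertile and at 290 to 411 CPM in the upper one. Insm1 had no such step and stayed between 331 and 567 CPM in all 3 tertiles and all libraries, with CKO replicate 1 the highest in each.

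Within single cells, detection of Atoh1 and Neurod1 was compared as a description, with no test. Cells were first thinned to 2000 UMIs, and the classes were then cut again on the thinned counts. A cell can thus be non-cycling here and cycling at full depth. Among non-cycling Pax6-leading cells so defined, a Neurod1 UMI was present in 36.2% ± 6.11 (SD, n = 4 libraries) of cells with an Atoh1 UMI. In the other cells of that class the share was 56.2% ± 1.496. The share was lower in the Atoh1-positive cells of each library, although only 34 to 264 such cells were counted per library. An Nhlh1 UMI was present in 10.96% ± 2.96 of Atoh1-positive cells and in 18.8% ± 4.55 of the others, and in 21.9% ± 5.70 of Neurod1-positive cells against 12.4% ± 3.20 of the rest. In cycling cells the shares with Neurod1 were 29.6% ± 2.41 and 35.5% ± 3.54. In non-cycling Meis2-leading cells they were 20.2% ± 11.05 and 21.9% ± 2.86, and the share was lower in Atoh1-positive cells in 1 library only, CKO replicate 1. There the Nhlh1 shares of Neurod1-positive and other cells were 14.4% ± 5.62 and 15.2% ± 2.69. Free RNA in the droplets was looked for in 15 erythroid cells of that depth. Of these, 2 held an Atoh1 UMI (13.3%, 95% Wilson interval 3.74 to 37.9) and 1 a Neurod1 UMI (6.67%, 1.19 to 29.8). GABAergic cells, a further reference, numbered 16, 16, 13 and 10 by library, controls first. Without thinning, their Atoh1 level was 121, 0, 373 and 99.7 CPM in that order. Neurod1 was at 294, 36.3, 58.2 and 641 CPM, and Nhlh2 at 433, 363, 664 and 185. How much of this was free RNA and how much the cells' own was not tested.

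The genes whose pattern over the 16 sums (cycling cells and 3 tertiles in each of 4 libraries, Pax6-leading non-cycling cells) was most like that of Atoh1 were Nkd1, Gpx8, Impdh2, Pdlim4 and Hes6, with Pearson r between 0.973 and 0.984 over 9079 genes compared. For Neurod1 they included Zfp385b, Clmp, Rab35 and Plcl1 (r between 0.941 and 0.954), and for Nhlh1 they were Rufy3, Serpini1, Klc1, Camsap1 and Sbk1 (r between 0.958 and 0.982). The 16 points share libraries and depth, so these values only describe likeness.

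Among 11 partners and antagonists of bHLH factors, 2 were higher and 6 lower in non-cycling than in cycling Pax6-leading cells, with a median log2 difference of -0.44 against 0.01 over all genes. The E protein genes split: Tcf3 was lower by 0.50 on the log2 scale, Tcf12 higher by 0.37 and Tcf4 higher by 0.14. The antagonists Id1, Id3 and Hes1 were lower by 1.15, 1.92 and 1.57 (adjusted p of 1.53e-08, 1.52e-04 and 2.93e-05). All 4 ventricular zone and glia markers (Sox2, Sox9, Fabp7 and Slc1a3) were lower in the same comparison, with a median of -0.66, and their part in these changes was not tested. Of the Notch pathway, through which neighbouring cells hold each other back from differentiating, 4 of 10 tested genes were higher and 4 lower. The receptors Notch1 and Notch2 were lower by 1.62 and 1.76, while the ligand Jag2 was higher by 2.08 and Dll1 lower by 1.78. Of 9 genes for partners of the Insm1 repressor, 3 were higher and 2 lower, each by less than 0.49. These counts of 8 of 11, 8 of 10 and 5 of 9 stand beside 52.6% of all genes.

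In all kept cells together, Atoh1 (-0.71 ± 0.10), Olig3 (-1.11 ± 0.15) and Insm1 (-0.52 ± 0.07) were again lower in non-cycling cells, and Nhlh1 (0.76 ± 0.09), Nhlh2 (0.72 ± 0.09) and Olig2 (0.79 ± 0.15) higher, where 53.8% of 13142 genes passed. Neurod1 did not pass there (0.15 ± 0.11, adjusted p = 0.259).

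The next comparison set the nuclei side against the granule cell side in non-cycling cells. Neurod1, Neurod2, Olig3 and Insm2 were lower in Meis2-leading cells, Nhlh2 and Olig2 were higher, and Atoh1, Neurod6, Nhlh1 and Insm1 did not pass; 38.6% of 11814 genes passed. Neurod1 was at 175 and 184 CPM in Meis2-leading cells of the controls and at 74.3 and 133 CPM in those of the CKO libraries, where Pax6-leading cells had 479 to 643 CPM. The ranges were far apart, with a log2 difference of -2.11 ± 0.16 (adjusted p = 2.37e-07). Insm2, the less studied relative of Insm1, was at 0.75 to 4.84 CPM in Meis2-leading cells and at 3.77 to 25.0 in Pax6-leading cells, a difference of -2.71 ± 0.28 (adjusted p = 4.19e-06) that rests on 21 UMIs in the Meis2-leading cells. Neurod2 differed by -0.55 ± 0.10 (adjusted p = 6.98e-04). Olig3 differed by -1.09 ± 0.36 (adjusted p = 0.0264), which did not pass without control replicate 1, control replicate 2 or CKO replicate 1 (adjusted p of 0.0981, 0.0574 and 0.109).

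Nhlh2 was at 164 and 161 CPM (controls) and 403 and 388 CPM (CKO) in Meis2-leading cells, against 95.7, 135, 116 and 118 CPM in Pax6-leading cells. It was higher on the Meis2-leading side in 4 of 4 libraries, by 1.10 ± 0.18 on the log2 scale (adjusted p = 2.86e-04). That value is over both genotypes together, and the CKO effect on Nhlh2 differed by side, as given below. Over 12 alternatives it ranged from 0.50 to 1.76, with the call kept in each. Olig2, known for oligodendrocytes and motor neurons and also expressed by cerebellar progenitors, was at 25.6, 67.0, 35.4 and 28.2 CPM on the Meis2-leading side and at 9.24, 17.8, 4.43 and 4.68 on the Pax6-leading side, a difference of 2.15 ± 0.20 (adjusted p = 1.73e-06). Atoh1 differed by -0.26 ± 0.12 (adjusted p = 0.0846), and 3 of 12 alternatives called it lower: thinned cells (-0.69, adjusted p = 9.28e-04), no low-count filter (-0.30, adjusted p = 0.0420) and the fit without CKO replicate 1 (-0.44, adjusted p = 0.0152). It was 0.27, the opposite sign, in the deeper cells (4000 or more UMIs, no more than 5% of them mitochondrial).

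**Figure D2:**
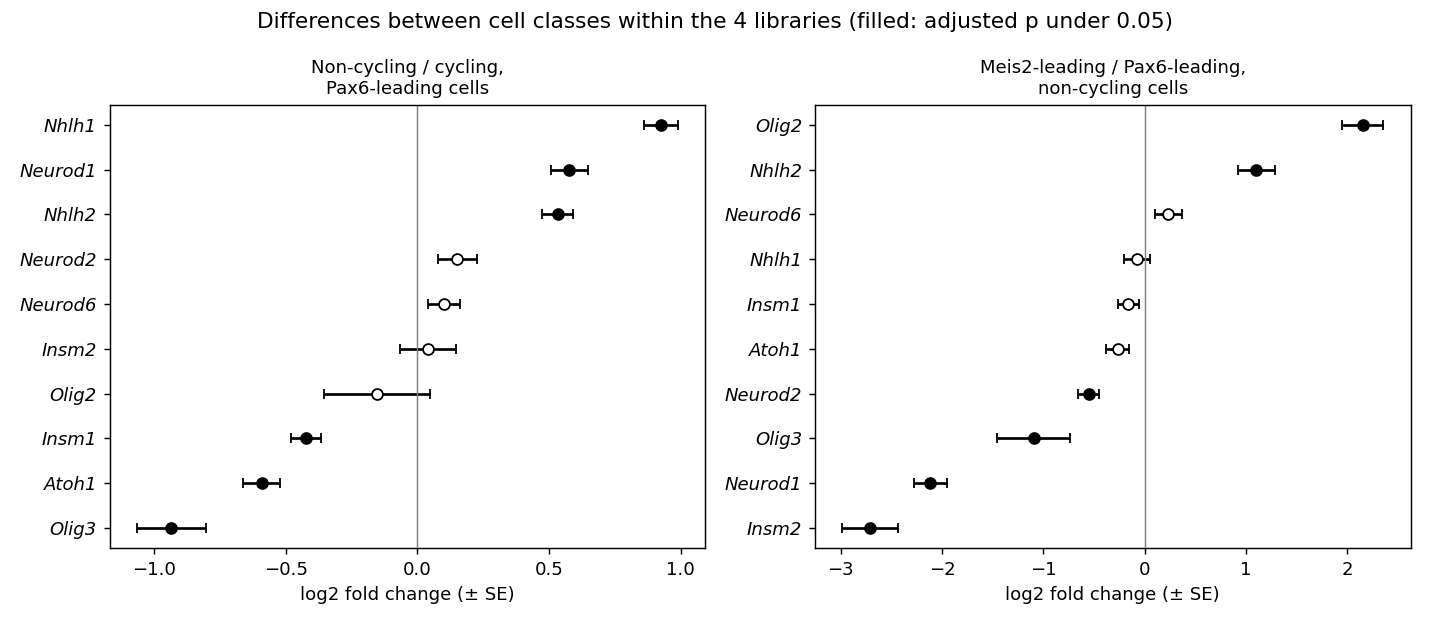
log2 fold change ± SE of each member (edgeR, 4 libraries, library as block) between non-cycling and cycling Pax6-leading cells (left) and between Meis2-leading and Pax6-leading non-cycling cells (right). Filled points passed at an adjusted p under 0.05. Nhlh2 is to the right of 0 in both panels, while Neurod1 is at 0.58 on the left and at -2.11 on the right.

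Over the 4 libraries, 285 cells thinned to 2000 UMIs held an Olig2 UMI, 165 of them from control replicate 2. The commissural neuron receptor gene Robo3 had a UMI in 48.1% ± 11.7 (SD, n = 4 libraries) of Olig2 cells, against 15.2% ± 8.62 of other cells. The neuropeptide gene Sst had one in 27.9% ± 3.56 against 9.19% ± 6.64. Other cells here are all other thinned cells, of either side. Meis2 had a UMI in 53.7% ± 21.2 of Olig2 cells against 36.3% ± 23.7 of the others, and Pax6 in 35.0% ± 12.3 against 57.3% ± 13.1. The part of side in the Robo3 and Sst shares was not tested. A UMI of Sox10, which defines the oligodendrocyte lineage, was found in 0 of the 285 and also in 0% of the other cells, so it does not set the Olig2 cells apart. The count of 0 allows a share of cells with a UMI of up to 1.05% at this depth and sets no limit on cells that express the gene. Of the other markers of that lineage, Cspg4 had a UMI in 0 of the 285 and Pdgfra in 2. The Pdgfra share was 1.14% ± 2.27, against 1.30% ± 0.84 of other cells. Olig1, the neighbour of Olig2 in the genome, was higher on the Meis2-leading side by 1.91 (adjusted p = 0.00538). Of the partners and antagonists of bHLH factors, 6 of 9 tested were lower and 1 higher in Meis2-leading cells; the exception was Id4 (2.12, adjusted p = 3.92e-06). Of all genes tested 38.6% passed, 19.9% as lower.

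The third question was whether deletion of En1 and En2 changed the members within a class. No member passed the edgeR test in cycling, Pax6-leading or Meis2-leading non-cycling cells. Few genes of any kind did: 0.0374% of 13365 genes in cycling cells, 0.049% of 12236 in non-cycling Pax6-leading cells and 0.135% of 11091 in non-cycling Meis2-leading cells. In the same order, 906, 1586 and 1061 genes had an unadjusted p under 0.05, and DESeq2 called 46, 122 and 73. The members' median log2 fold changes were 0.10, 0.09 and 0.14, against -0.02, 0.01 and 0.01 over all genes tested. With 2 libraries of pooled animals a group, p-values measure the spread between these libraries only, and in summed counts a change in the number of cells of a kind cannot be told apart from a change in RNA per cell.

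**Figure D3:**
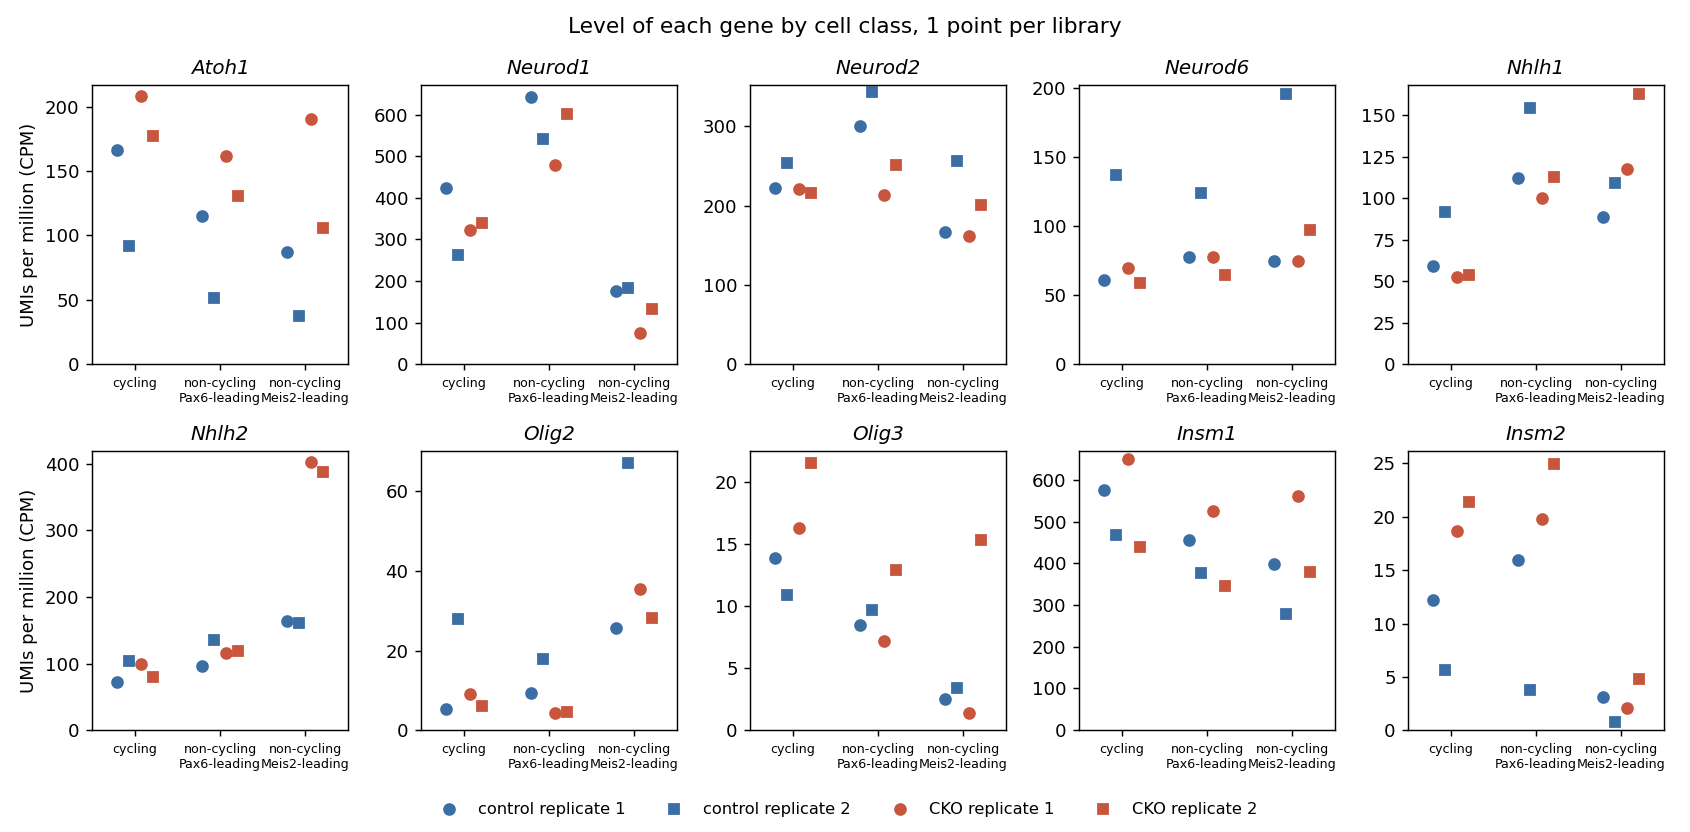
CPM (vertical axes, from 0) of each member in cycling, non-cycling Pax6-leading and non-cycling Meis2-leading cells, 1 point per library. In Meis2-leading cells Nhlh2 is at 403 and 388 CPM in the CKO libraries and at 164 and 161 in the controls.

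Atoh1 missed the threshold in all 3 classes, although in each the 2 CKO values lay above the 2 control values. In cycling cells it was at 166 and 92.0 CPM in the controls and at 208 and 177 in the CKO libraries, a log2 fold change of 0.68 ± 0.30 (edgeR adjusted p = 0.735); it was 0.31 without control replicate 2, 1.21 without control replicate 1 and 0.35 in the deeper cells, with no call. In non-cycling Pax6-leading cells the value was 0.92 ± 0.31 (adjusted p = 0.285). In non-cycling Meis2-leading cells Atoh1 was at 86.8 and 37.8 CPM against 190 and 106, a value of 1.38 ± 0.38 (adjusted p = 0.266). The low end came from control replicate 2: without it the values for the non-cycling classes were 0.51 and 0.88, and without control replicate 1 they were 1.63 and 1.98 and passed (adjusted p of 0.00555 and 2.95e-04). In the deeper cells they were 0.52 and 0.77. With no low-count filter both passed (adjusted p of 0.00633 and 2.48e-05). The Meis2-leading value also passed without CKO replicate 2 (1.77, adjusted p = 1.25e-11).

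In Meis2-leading cells the log2 fold change of Nhlh2 was 1.32 ± 0.22, with both CKO values (403 and 388 CPM) above both control values (164 and 161 CPM). The unadjusted p of this edgeR test was 9.86e-05 and the adjusted p 0.0684, above the threshold; DESeq2 gave 1.32 with an adjusted p of 1.11e-04. It passed without CKO replicate 1 or without CKO replicate 2 (adjusted p of 4.74e-04 and 6.88e-07), and did not without control replicate 1 or 2 (0.142 and 0.175). In all, 7 of 14 alternatives called it, and its value ranged from 0.95 to 1.38. In non-cycling Pax6-leading cells Nhlh2 was at 95.7 and 135 CPM against 116 and 118, ranges that overlap, with a fold change of 0.17 ± 0.22 (adjusted p = 0.787).

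The difference between these effects was tested in its own right. The CKO effect on Nhlh2 was larger in Meis2-leading than in Pax6-leading non-cycling cells by 1.13 ± 0.20 on the log2 scale (edgeR interaction term with library as block, adjusted p = 0.0109), where 0.287% of 12536 genes passed. It passed without each library in turn, with values between 0.90 and 1.37. On cells thinned to 2000 UMIs it was 0.60 and did not pass (adjusted p = 0.751), and in the deeper cells it was 0.88 (adjusted p = 0.0125). The nuclei factors Lhx2 and Lhx9 passed the same test, with 1.55 ± 0.28 and 1.503 ± 0.23 (adjusted p of 0.0142 and 0.00301). Of the 9 tested nuclei lineage genes 2 passed, and of the 12 granule lineage genes none did. Within a side, the median CKO effect on the tested nuclei lineage genes was -0.76 in Pax6-leading and -0.07 in Meis2-leading non-cycling cells. No nuclei lineage gene was called in either. All 5 tested erythroid genes passed the interaction test as lower, with a median of -6.80. The 7 erythroid genes summed to 43.2 and 1028 CPM (controls) and 3091 and 3.37 CPM (CKO) in Pax6-leading cells. Their part in the Nhlh2 interaction was not tested.

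By maturation tertile, Nhlh2 in Meis2-leading cells was at 202 and 134 CPM (controls) and 362 and 285 CPM (CKO) in the lower one, at 169 and 173 against 435 and 539 in the middle one, and at 134 and 158 against 403 and 323 in the upper one. Both CKO libraries were above both controls in all 3, and also in cycling Meis2-leading cells, with 280 and 269 CPM against 157 and 117. Other measures of the same cells are given beside it. The summed level of 12 granule lineage genes was 2555 and 2180 CPM in Meis2-leading cells of the controls and 3192 and 3901 CPM in those of the CKO libraries, ranges that do not overlap. The 4 ventricular zone and glia genes summed to 134 and 42.7 CPM against 105 and 280, ranges that overlap. The 7 erythroid genes summed to 53.1 and 1805 CPM against 28.4 and 5.64, and without haemoglobin-rich cells the CKO effect on Nhlh2 in Meis2-leading cells was 1.32 (adjusted p = 0.0670). The class held 520 and 2092 control cells and 484 and 314 CKO cells, with median UMIs of 2571, 2159, 2924 and 2204, medians that overlap between groups. The part of the granule lineage genes and of cell number in the Nhlh2 result was not tested.

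In Meis2-leading cells the 2 CKO values of Neurod1 (74.3 and 133 CPM) lay below the 2 control values (175 and 184 CPM). The log2 fold change of -0.80 ± 0.27 did not pass (adjusted p = 0.369), except without CKO replicate 2 (-1.21, adjusted p = 1.64e-04), and was -0.16 in the deeper cells. In Pax6-leading non-cycling cells Neurod1 was at 643 and 542 against 479 and 602 CPM, a fold change of 0.01 ± 0.25. The difference between the classes, -0.85 ± 0.22, did not pass (adjusted p = 0.171). It passed without control replicate 1 (-1.02, adjusted p = 0.00658), and in the deeper cells it was 0.11.

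**Figure D4:**
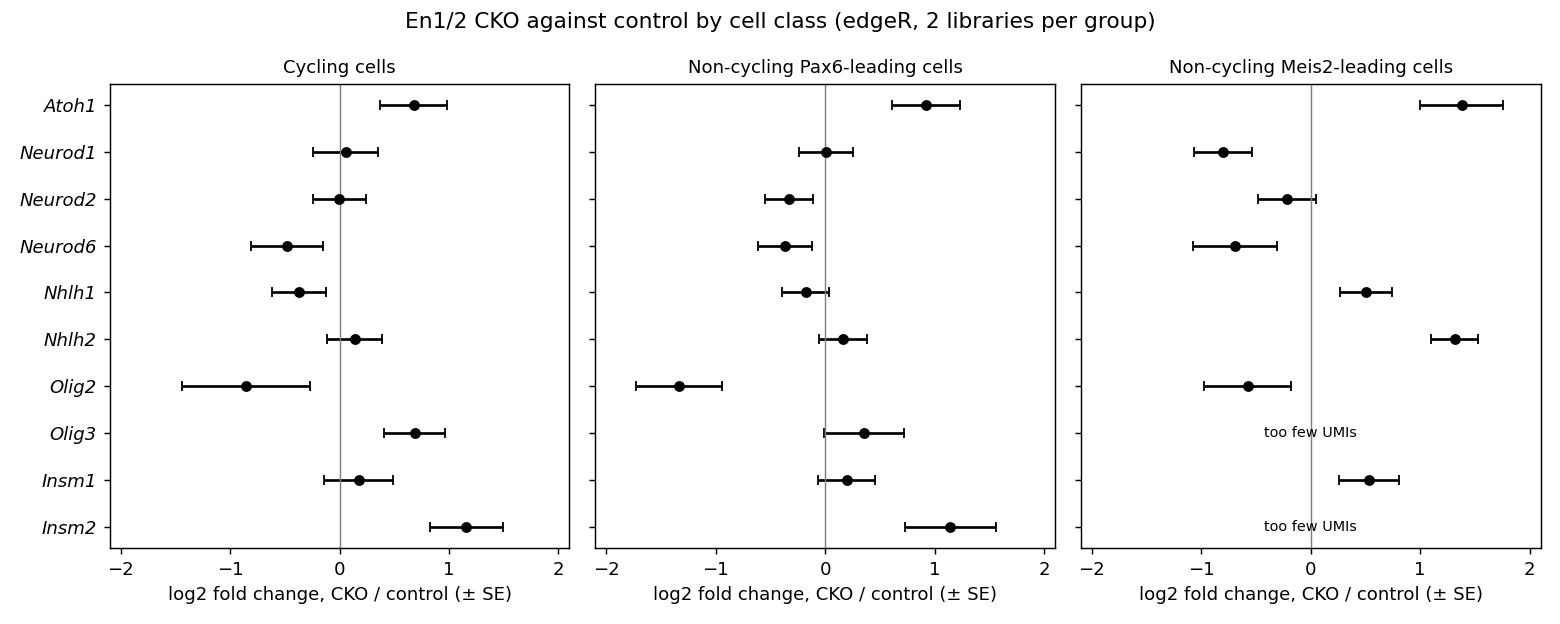
log2 fold change of CKO over control ± SE (horizontal axis) for each member in 3 classes of cells, from edgeR with 2 libraries per group. No member passed at an adjusted p under 0.05; Atoh1 is to the right of 0 in all 3 panels, and Nhlh2 at 1.32 in Meis2-leading cells has the smallest error of the values above 1.

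The remaining members gave no call between genotypes. Olig2 in Pax6-leading non-cycling cells was at 9.24 and 17.8 CPM in the controls and at 4.43 and 4.68 in the CKO libraries, a fold change of -1.34 ± 0.40 on 158 UMIs (adjusted p = 0.262). Insm2 was at 12.2 and 5.67 against 18.7 and 21.4 CPM in cycling cells (1.16 ± 0.33, adjusted p = 0.509), and at 15.9 and 3.77 against 19.8 and 25.0 CPM in Pax6-leading non-cycling cells (1.14 ± 0.41, adjusted p = 0.309). In cycling cells Insm2 was called with no low-count filter (1.19, adjusted p = 0.0108) and was 1.96 without control replicate 1 (adjusted p = 0.137). With no filter the Olig2 and Insm2 values in Pax6-leading non-cycling cells passed too (adjusted p of 0.0225 and 0.00427). Without control replicate 2 those values were -0.85 and 0.67. Without control replicate 1 the Olig2 and Insm2 values in Pax6-leading non-cycling cells were -1.82 and 2.71, and both passed (adjusted p of 0.0267 and 0.00354). Olig3 in cycling cells was at 13.9 and 10.9 against 16.3 and 21.5 CPM (0.69 ± 0.28, adjusted p = 0.703). In Meis2-leading cells Olig3 had 45 UMIs and Insm2 21, too few to be tested. In cycling cells Insm1 differed more within groups than between them, at 576 and 469 against 651 and 439 CPM. In Meis2-leading non-cycling cells its fold change was 0.53 ± 0.27 (edgeR adjusted p = 0.585). Neurod6, a factor of maturing excitatory neurons, was at 61.1 and 137 CPM against 69.4 and 58.5 in cycling cells, with control replicate 2 alone high. Neurod2 and Nhlh1 were likewise without a call. The CKO effect in Meis2-leading minus Pax6-leading non-cycling cells was 0.68 ± 0.19 for Nhlh1 and 0.93 ± 0.34 for Olig2. Neither passed (edgeR interaction term, adjusted p of 0.252 and 0.511).

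Whether the CKO effect differed between non-cycling and cycling cells was tested too. No member passed, and 0.122% of 13881 genes did; DESeq2 called 31 genes, and 725 had an unadjusted edgeR p under 0.05. The largest value with an unadjusted p under 0.05 was that of Atoh1, 0.47 ± 0.15 (adjusted p = 0.592), followed by Nhlh1 with 0.44 ± 0.15 (adjusted p = 0.669) and Nhlh2 with 0.39 ± 0.14 (adjusted p = 0.822). Without control replicate 1 Atoh1 and Nhlh1 passed, with 0.67 and 0.58 (adjusted p of 0.0278 and 0.0477).

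As shares of cells thinned to 2000 UMIs, 22.5% and 13.7% of control cells and 29.97% and 29.98% of CKO cells were cycling, a difference of 11.9 percentage points. An Atoh1 UMI was present in 17.0% and 8.53% of control cells and in 24.5% and 23.7% of CKO cells, a difference of 11.3 points. Without control replicate 2 these differences were 7.45 and 7.08 points. Both CKO libraries were above both controls in each, and the exact two-sided permutation test gave p = 0.33, the smallest that 4 libraries allow. A Neurod1 UMI was present in 41.3% and 32.2% against 33.6% and 40.6% (p = 1, exact permutation test). Without thinning the Atoh1 shares were 25.9% and 10.1% against 45.9% and 43.7%, at the unequal depths given above.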

How the data were processed

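Per the submitters' processing notes, the authors used Cell Ranger 5.0.0 and the build mm10. The deposited values are raw UMI counts per gene and barcode, 1 matrix per library. The annotation is not given in the sources used here. GENCODE M21 (GRCm38) gave coordinates; 32158 of 32285 gene IDs were found.

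Members and gene lists were chosen with earlier results of these data known. All 10 members are described, with examples of the list genes that passed, and En1 and En2 as a check. For likeness, genes with a mean of at least 10 CPM were ranked by log2(CPM + 1), and the 5 nearest to Atoh1, Neurod1 and Nhlh1 were taken. Some of these results are not reported here. Counts were summed per library and class (at least 20 cells in every library) and tested by edgeR 4.0.16 (R 4.3.3; TMM, filterByExpr, quasi-likelihood F test, two-sided, Benjamini-Hochberg over all genes tested, threshold 0.05). Comparisons of classes had library as block. CPM are without TMM factors, which shift CKO against control by -0.12, -0.14 and -0.03 (log2) in cycling, Pax6-leading and Meis2-leading cells. SE was taken as log2 fold change / √F. Doublets were kept; removing high scorers (68, 124, 32 and 109 cells) was an alternative. Fits were tested on simulated data. For shares, cells were thinned to 2000 UMIs, which left out 940, 1786, 422 and 1099 shallower cells (control 1 and 2, CKO 1 and 2). Wherever thinned cells were used, their classes were cut again on the thinned counts. Intervals cover counting error only. Python 3.11.15, numpy 2.4.6, scipy 1.17.1 and DESeq2 1.42.0 were used.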

Additional observations from a re-analysis of the deposited data

Results flagged for a closer look

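The CKO effect on Nhlh2 differed between the sides of the lineage, by 1.13 on the log2 scale (Meis2-leading minus Pax6-leading non-cycling cells, edgeR interaction term, adjusted p = 0.0109). Nhlh2 was higher in both CKO libraries on the Meis2-leading side, whereas the control and CKO values overlapped on the Pax6-leading side. The difference was 0.60 on thinned cells, where it did not pass (adjusted p = 0.751). No other member passed this test. Groups of 2 libraries are too small to test whether a library stands apart within its group, although control replicate 2 differed in makeup as given above.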

How the results depend on the processing

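The counts of genes called between genotypes were unstable, with main values of 5 (cycling), 6 (Pax6-leading) and 15 (Meis2-leading non-cycling). DESeq2 gave 46, 122 and 73, no low-count filter 255, 407 and 305, and thinning to 2000 UMIs 18, 2 and 7. Leaving out 1 library gave 5 to 122, 11 to 356 and 64 to 972. Without haemoglobin-rich cells there were 1 in cycling and 3 in Pax6-leading cells. Intact cells (4000 or more UMIs, no more than 5% mitochondrial), removal of doublet scores, RLE factors, cycling at 3 UMIs and a lead of 2 UMIs each gave 3 in Pax6-leading cells, and the last 2 gave 23 and 25 in Meis2-leading cells. For the class comparisons (7074 in all cells, 6492 Pax6-leading, 4566 between sides) thinning gave 4043, 2891 and 2565, control libraries only 4656, 4154 and 2518, and intact cells 2869 between sides. For the difference of the CKO effect by cell cycle (17), DESeq2 gave 31, no filter 134, thinning 9, intact cells 5 and leaving out 1 library 55 to 379. By side (36) they gave 14, 93 and 3, and leaving out 1 library 50 to 201. The cause was not tested.

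Signs turned for Atoh1 between sides (0.27 in intact cells), Neurod1 in the difference by side (0.11 in intact cells) and the share with a Neurod1 UMI, 0.40 points, which ran from -4.16 to 4.97 without 1 library. Olig3, Olig2 and Insm2, with 1054, 1152 and 1252 UMIs in all, are the members most limited by depth.

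The labels do not say that replicate numbers pair libraries, and deviations of same-numbered libraries correlated at -0.12, -0.24 and -0.25. A replicate block gave 13, 0 and 60 genes in cycling, Pax6-leading and Meis2-leading cells, with Atoh1 and Nhlh2 passing in the last (adjusted p of 0.0320 and 0.0486).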
